A study of Mus musculus with 6 samples.

Results

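The 10 genes described here, Ttr, Folr1, Kl, Clic6, Aqp1, Enpp2, Kcne2, Kcnj13, Sostdc1 and Otx2, mark the epithelium of the choroid plexus and are 10 of the 52390 genes of the count table. They were picked by gene symbol, and the set was proposed because its counts were concentrated in 1 control library, so the values of that library, and every fit that includes it, are given below as a description and not as a test of these genes. The study compared brain RNA from 3 control mice with that from 3 mice overexpressing AP1AR-DT (AC109347.1), a human long noncoding RNA tied to bipolar disorder. All mice were wild-type C57BL/6 J males given a recombinant adeno-associated virus (rAAV) in the medial prefrontal cortex at 8 weeks of age. The AP1AR-DT_OE mice received a vector with the RNA under the human synapsin I promoter, which acts in neurons, and the control mice an empty vector without an insert, and both vectors carried EGFP. AP1AR-DT is a human gene without a row among the mouse genes, so its level could not be checked in these libraries. Which AP1AR-DT_OE column belongs to which numbered mouse is not stated, so letters A to C name those columns here.

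The choroid plexus is a folded sheet of epithelium that hangs in the ventricles of the brain and secretes cerebrospinal fluid. Its cells move ions and water from blood to ventricle, carry thyroid hormone and folate, and form the barrier between blood and cerebrospinal fluid. The medial prefrontal cortex holds no choroid plexus, so RNA that only this epithelium makes is usually low in a cortical sample. That need not hold for members made elsewhere too, such as Enpp2, which oligodendrocytes also make.

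The libraries held 42061721 to 54668294 counts, with 5.75 to 9.86% in mitochondrial genes. Levels are given as CPM, the counts relative to library size after TMM scaling, in the order control 1, 2 and 3, then AP1AR-DT_OE A, B and C. Control 3 stood apart in far more than the members: 379 genes were over 2-fold above every other library there, against 29 to 112 such genes in each of the other 5 libraries. The labels name the tissue only as brain, whereas the study names the medial prefrontal cortex and, in its methods, cortical tissue. Slc17a7, the vesicular glutamate transporter of cortical excitatory neurons, was at 28.2, 3.86 and 233 CPM in the controls and at 231, 463 and 87.2 CPM in the AP1AR-DT_OE libraries and was thus lowest in controls 1 and 2. The other 7 genes of the cortical list did not share 1 order, with Rorb at 21.6 and 31.4 CPM in controls 1 and 2 against 20.5 to 22.1 CPM with AP1AR-DT_OE, and the sum of all 8 was 218, 246 and 464 CPM in the controls and 477, 728 and 288 CPM with AP1AR-DT_OE. In bulk tissue, fewer cells of a type and less RNA per cell cannot be told apart.

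Kcnj13, Kcne2 and Kl, 3 of the 5 members for which such a sequence was at hand, are shown with the 250 bases before their first annotated start (RefSeq, GRCm38.p6), because promoters of genes that were high together are what a reader would compare first. Both strands were searched for the TATA box TATAAA and for TAATCC, the core bound by Otx2 and related homeodomain factors, and capitals mark a match. Kcnj13 lay at chr1:87394730-87394979 on the minus strand, Kcne2 at chr16:92292139-92292388 on the plus strand and Kl at chr5:150952357-150952606 on the plus strand.
Kcnj13: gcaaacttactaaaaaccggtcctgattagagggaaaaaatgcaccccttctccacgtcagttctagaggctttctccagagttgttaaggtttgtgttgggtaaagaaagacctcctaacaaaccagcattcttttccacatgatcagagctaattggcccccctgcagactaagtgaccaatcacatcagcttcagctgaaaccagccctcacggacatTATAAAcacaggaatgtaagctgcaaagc
Kcne2: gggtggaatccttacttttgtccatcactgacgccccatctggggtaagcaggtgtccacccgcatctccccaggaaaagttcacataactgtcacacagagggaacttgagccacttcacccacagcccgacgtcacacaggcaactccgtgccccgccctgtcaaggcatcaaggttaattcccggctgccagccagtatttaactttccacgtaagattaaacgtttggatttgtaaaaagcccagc
Kl: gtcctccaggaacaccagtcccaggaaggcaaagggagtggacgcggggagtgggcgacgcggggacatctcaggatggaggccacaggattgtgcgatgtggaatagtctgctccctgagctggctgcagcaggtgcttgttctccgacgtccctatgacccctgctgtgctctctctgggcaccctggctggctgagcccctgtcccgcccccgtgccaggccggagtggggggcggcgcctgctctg
The Kcnj13 window held TATAAA 29 to 24 bases before the start, whereas the windows of Kcne2 and Kl held neither motif. Windows of this kind were at hand for 5 members (Kcnj13, Kl, Aqp1, Otx2 and Kcne2), with 9 windows in all because Otx2 and Kcne2 have several starts. TATAAA was in 2 of the 9 and TAATCC in 1, an Otx2 window, against 12.4% and 6.25% of the 32851 windows of all genes. That Otx2 window with TAATCC overlaps an annotated Otx2 exon. Some Otx2 windows also share bases, so the 9 are not all separate sequences. The bases also differed in composition, with 45.2% G and C for Kcnj13, 52.4% for Kcne2 and 66.8% for Kl. Kcne2 and Clic6 lie 188 kb apart on the plus strand of chromosome 16 with 4 protein-coding genes between them. Of those, Rcan1 was at 60.6 CPM in control 3 and 71.2 to 83.1 CPM in the others, Smim11 at 3.98 against 3.69 to 5.54 CPM, and Kcne1 had no count in any library.

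All 10 members were highest in control 3, and all 10 were there over 2-fold above the highest other library. Over genes at 1 CPM or more in control 3, 24.1% were highest in that library and 2.12% were over 2-fold above all others, but the members were chosen for this pattern and nothing is read from their count. The median member was 5.03 higher in control 3 than in the mean of the other 5 libraries on the log2 CPM scale, against 0.0169 over the 17895 genes at 1 CPM or more in control 3. The smallest differences were those of Clic6 at 1.53 and Otx2 at 1.81, and the largest that of Ttr at 10.13. Summed over the 10 genes, the level was 145, 149 and 5133 CPM in the controls and 110, 117 and 142 CPM in the AP1AR-DT_OE libraries. Ttr made up 68.5% and Enpp2 21.0% of what control 3 held above the others.

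**Figure D1:**
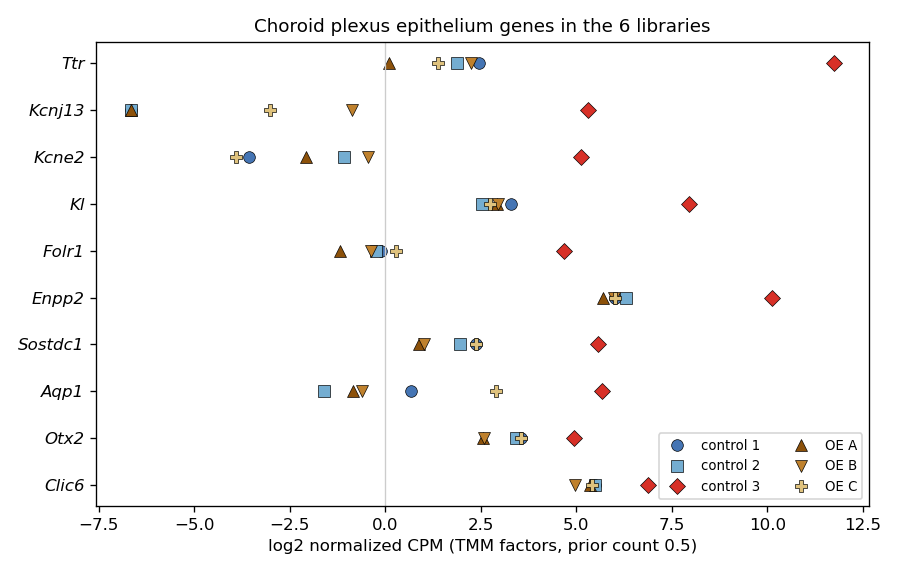
Each row is a member and each symbol a library, placed by log2 normalized CPM with a prior count of 0.5, so that libraries without a Kcnj13 count sit at the left end. The red diamonds of control 3 are right of the other 5 symbols in all 10 rows, by the widest gap for Ttr and the narrowest for Clic6.

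Among the carriers and secreted proteins, Ttr (chr18:20665280-20674321, plus strand), which encodes transthyretin, the thyroxine carrier of cerebrospinal fluid, was at 5.43, 3.69 and 3428 CPM in the controls and at 1.06, 4.77 and 2.57 CPM with AP1AR-DT_OE. Control 3 alone held 171238 of its counts, 99.5% of the total, and the other 5 libraries between 56 and 257 each. Folr1 (chr7:101858331-101870788, minus strand), the folate receptor that brings folate into cerebrospinal fluid, was at 0.910, 0.843 and 25.6 CPM and at 0.434, 0.761 and 1.20 CPM. Controls 1 and 2 fell inside the range of the AP1AR-DT_OE libraries for Folr1, and control 3 was 30.8-fold above the mean of the other 5. Enpp2 (chr15:54838901-54952892, minus strand), encoding autotaxin, the secreted enzyme that makes lysophosphatidic acid, was at 65.0, 78.3 and 1112 CPM and at 52.0, 63.3 and 64.3 CPM. Here every library had a clear level, control 3 exceeded the mean of the others 17.2-fold, and controls 1 and 2 were both above the 3 AP1AR-DT_OE libraries, by a small margin. Sostdc1 (chr12:36314139-36318452, plus strand), a secreted antagonist of BMP and Wnt signalling, was at 5.21, 3.90 and 47.5 CPM and at 1.83, 2.00 and 5.15 CPM. AP1AR-DT_OE C matched controls 1 and 2 for Sostdc1, while A and B were lower. Kl (chr5:150952607-150993817, plus strand), encoding Klotho, the co-receptor of the hormone FGF23, was at 9.71, 5.82 and 246 CPM and at 7.64, 7.74 and 6.73 CPM. Outside control 3 the Kl libraries overlapped fully and the highest exceeded the lowest by 1.67-fold, against 32.7-fold between control 3 and their mean.

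Among the genes of ion and water transport, Aqp1 (chr6:55336432-55348555, plus strand), the water channel of the apical membrane, was at 1.60, 0.321 and 50.7 CPM in the controls and at 0.547, 0.649 and 7.51 CPM with AP1AR-DT_OE. AP1AR-DT_OE C stood out with 394 Aqp1 counts, against 16 to 65 in controls 1 and 2 and AP1AR-DT_OE A and B. Among the libraries other than control 3 it was also the highest for Folr1 and Otx2, and not for the other 7 members, with 135 counts of Ttr, 3 of Kcne2 and 6 of Kcnj13. Its summed level of 5 red blood cell genes, another place where Aqp1 is made, was 216 CPM, inside the 124 to 281 CPM of the other libraries, and the source of its Aqp1 counts was not tested. Kcnj13 (chr1:87386363-87394729, minus strand), the inward rectifier potassium channel Kir7.1, was at 39.4 CPM in control 3 with 1970 counts. It had no count in controls 1 and 2 and AP1AR-DT_OE A, and 29 and 6 counts in AP1AR-DT_OE B and C. A count of 0 allows up to 3 counts, which is 0.0737, 0.0602 and 0.0566 CPM in these 3 libraries. Kcne2 (chr16:92292389-92298129, plus strand), a small subunit that partners potassium channels, was at 0.0737, 0.462 and 34.9 CPM and at 0.226, 0.723 and 0.0572 CPM. With 3 to 39 counts outside control 3, its order among those 5 libraries rests on few reads. Clic6 (chr16:92485736-92541243, plus strand), of the chloride intracellular channel family, was at 45.0, 45.0 and 117 CPM and at 40.8, 31.0 and 43.0 CPM. Its level was steady, so that control 3 reached only 2.85-fold the mean of the others, and controls 1 and 2 were again both above the 3 AP1AR-DT_OE libraries.

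The transcription factor of the set, Otx2 (chr14:48657677-48673819, minus strand), a homeodomain protein needed to form and maintain the choroid plexus, was at 11.7, 10.7 and 30.8 CPM in the controls and at 5.88, 5.97 and 11.7 CPM with AP1AR-DT_OE. As for Sostdc1, AP1AR-DT_OE C was at the level of controls 1 and 2 and A and B lay below. The span of Otx2 overlaps that of its antisense partner Otx2os1, at 0 to 1.00 CPM, and whether their exons overlap was not checked. The library kit is not stated to keep strand, so reads from any exon they share cannot be told apart. The same holds for Folr1 and Anapc15 (1.07 to 4.52 CPM) and for Enpp2 and Gm26684, which overlap on opposite strands, and for Otx2 and Gm49154 and Clic6 and 2410124H12Rik (0 to 0.210 CPM) on the same strand. Kcnj13 overlaps Gigyf2 on the opposite strand but had no count in 3 libraries where Gigyf2 was at 40.1, 45.6 and 35.2 CPM, so reads of Gigyf2 were not counted for it there. Anapc15 was at 1.14 CPM in control 3 and 1.07 CPM in AP1AR-DT_OE C, below the other 4.

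To compare levels between genes, CPM was divided by the summed exon length in kb. On that scale control 3 was ordered Ttr at 2891, Enpp2 at 193, Kcnj13 at 31.1, Clic6 at 29.8, Sostdc1 at 26.7, Kl at 26.4, Kcne2 at 19.7, Aqp1 at 19.3, Folr1 at 11.1 and Otx2 at 7.30 CPM per kb. Ttr ranked 15th of all genes there. The mean of the other 5 libraries had another order, with Enpp2 at 11.2 and Clic6 at 10.5, then Ttr at 2.95, Otx2 at 2.18 and Sostdc1 at 2.03, and Aqp1 at 0.809 and Kl at 0.807 CPM per kb. Folr1 at 0.361, Kcne2 at 0.175 and Kcnj13 at 0.103 CPM per kb came last. Over these 5 libraries, neighbours in the order overlapped except for Clic6 above Ttr and Kl above Folr1. Control 3, as a single library, has no spread by which to judge its order. The proportions between members therefore differed between libraries. Enpp2 had 32.5% as many counts as Ttr in control 3 and 1196 to 4921% in the others, and Otx2 had 0.899% against 125 to 557%.

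Leaving out control 3, the library the choice rested on, gave the test of these genes between the groups. No member passed the test: 0 of the 9 that passed the filter on low counts were called at P under 0.05 with a log2 fold change beyond 0.32 (edgeR quasi-likelihood test, two-sided, 2 against 3 mice), against 5.16% of all genes called lower and 5.64% called higher (10.8% in all), and none at an adjusted P under 0.05, against 0.0578% of all genes. All 9 had P above the unadjusted 0.05, from 0.119 for Enpp2 to 0.823 for Folr1, and the adjusted P ran from 0.468 to 0.936. Kcnj13 did not pass the filter. DESeq2 on the same libraries called 1 of 10, Kcnj13, for which it gave no adjusted P and which rests on 29 and 6 counts in AP1AR-DT_OE B and C and on none elsewhere. The narrowest log2 fold changes, AP1AR-DT_OE over control with their 95% intervals, were −0.25 (−0.58 to 0.08) for Enpp2, −0.22 (−0.61 to 0.17) for Clic6 and −0.06 (−0.65 to 0.53) for Kl. For Ttr the value was −0.69 (−2.08 to 0.70), for Folr1 −0.12 (−1.41 to 1.16), for Sostdc1 −0.59 (−1.76 to 0.57) and for Otx2 −0.50 (−1.29 to 0.29). Aqp1 at 1.62 (−1.61 to 4.84) and Kcne2 at 0.32 (−2.67 to 3.31) had intervals that span several-fold changes in both directions. Controls 1 and 2 were both above the 3 AP1AR-DT_OE libraries for 2 members, Enpp2 and Clic6, against 17.6% of all genes tested. Leaving out AP1AR-DT_OE C as well, the library that matched the controls for Sostdc1 and Otx2, called both of these lower, with log2 fold changes of −1.24 and −0.91 (adjusted P = 0.210 for each by edgeR). In that fit 8.05% of all genes were called lower, and the library left out was picked after its values were seen. Leaving out AP1AR-DT_OE B instead called Ttr lower, at −1.32 (adjusted P = 0.719).

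With all 6 mice, 7 of the 9 members tested were called lower in AP1AR-DT_OE, against 7.15% of all genes, and none higher, against 5.10% (12.2% in either direction). None had an adjusted P under 0.05, against 0.0275% of all genes. The count of 7 uses the library that chose the members, and nothing is read from it. The fitted log2 fold changes ranged from −8.68 for Ttr to −0.85 for Clic6, with P between 0.0178 and 0.0429 for the 7 called (adjusted P between 0.295 and 0.321, edgeR). Clic6 (adjusted P = 0.348) and Aqp1 (adjusted P = 0.502) were not called. The control mean ± SD showed what the fit averaged, at 1146 ± 1977 CPM for Ttr against 2.80 ± 1.87 CPM (n = 3 each), and at 419 ± 601 CPM for Enpp2 against 59.9 ± 6.87 CPM. DESeq2 withheld its P for 8 of the 10 members because of its check for single extreme counts, which it did for 0.311% of the genes tested by edgeR, and called Otx2 alone (adjusted P = 0.0900). The 7 calls became 0 without control 3, without AP1AR-DT_OE A or without AP1AR-DT_OE B, 2 without AP1AR-DT_OE C, and 9 without control 1 or without control 2. The direction turned for Aqp1, from −2.60 to 1.62, and for Kcne2, from −5.12 to 0.32, when control 3 was left out.

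**Figure D2:**
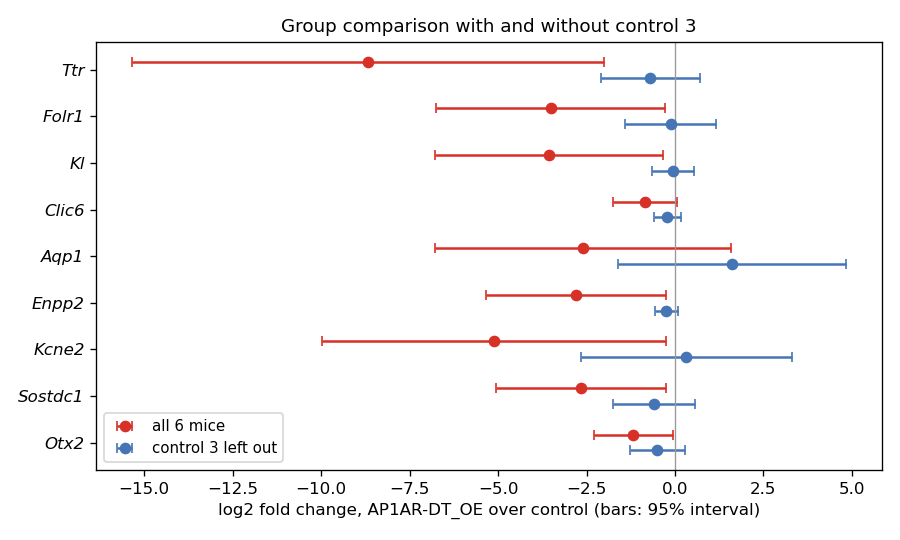
Points are edgeR log2 fold changes of AP1AR-DT_OE over control for the 9 members tested and bars their 95% intervals, with all 6 mice in red and with control 3 left out in blue. With control 3 in the fit 7 of the red bars lie left of 0, and without it all 9 blue bars cross 0.

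Most other listed genes of choroid plexus epithelium were also highest in control 3. The list was drawn up with earlier results of these data known, so it is no independent check of the members. Of its 38 genes, 35 were highest in control 3 and 31 were over 2-fold above every other library. Over all genes at 1 CPM or more in control 3 those shares were 24.1% and 2.12%. The median difference of the list was 2.82 on the log2 CPM scale. The largest was that of Slc4a5, a sodium bicarbonate transporter, at 31.1 CPM in control 3, at 0.167 CPM in AP1AR-DT_OE B and without a count in the other 4. F5, coagulation factor V, was at 59.9 CPM against 0.339 to 1.41 CPM, and Cldn2, a claudin of leaky epithelia, at 29.5 against 0.207 to 1.60 CPM. The smallest difference was that of Spint2, a protease inhibitor, at 46.3 CPM in control 3 and 48.9 CPM in control 2. With all mice 10 of the 33 tested were called lower, against 7.15% of all genes, and none higher, a count that again includes control 3. Without control 3, against 5.16% of all genes lower and 5.64% higher, 1 was called lower, Slc2a12 (log2 fold change −0.42), and 1 higher, Slc29a4 (0.33), and the adjusted P by edgeR was 0.399 and 0.402. The median log2 fold change of the 33 was −1.55 with all mice and −0.08 without control 3.

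Genes of fluid secretion that many cells use moved less. Of 18 genes for ion, acid-base and water transport, 10 were highest in control 3, against 24.1% of all genes at 1 CPM or more there. Over 2-fold above the rest were 3 of the 18, against 2.12% of all genes. These were Slc4a5, the bicarbonate exchanger gene Slc4a2 at 83.7 against 26.7 to 37.0 CPM, and the carbonic anhydrase gene Car12 at 62.9 against 3.15 to 20.6 CPM. Slc4a5, Car12 and Car14 also stand on the list of 38. Clcn2, a chloride channel gene, had the lowest difference at −0.30, with control 3 inside the 15.0 to 25.4 CPM of the others. Without control 3, 2 of 17 were called higher in AP1AR-DT_OE, against 5.64% of all genes, and of these Clcn2 had a log2 fold change of 0.55 and an adjusted P of 0.399 by edgeR. Of 10 transcription factors of plexus development and multiciliation, Lmx1a, Gmnc and Msx1 were over 2-fold above the rest in control 3, against 2.12% of all genes. Lmx1a, which specifies the roof plate and plexus, was at 3.54 CPM there and at most 0.0943 CPM elsewhere, and Gmnc, which starts multiciliation, was at 5.53 against 0.152 to 0.582 CPM.

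**Figure D3:**
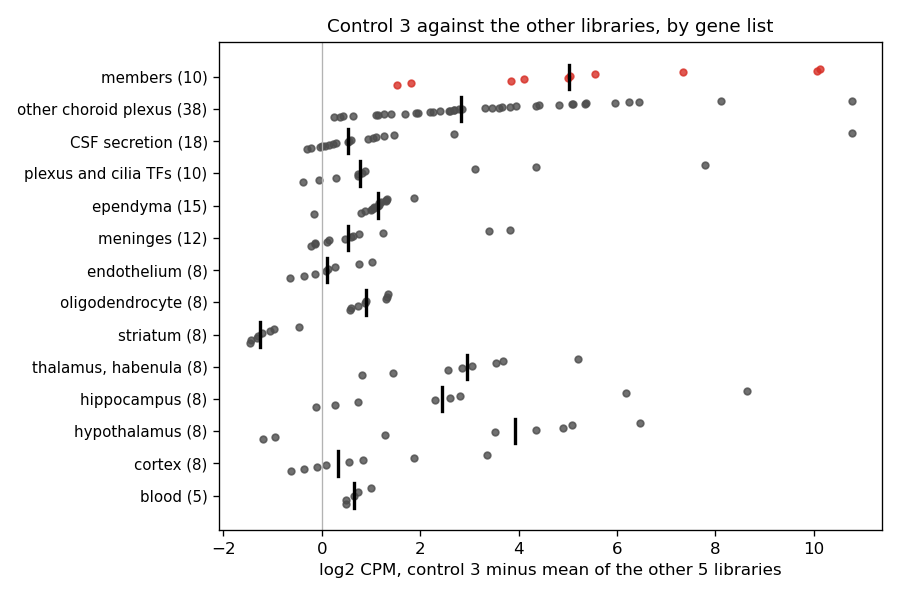
Each dot is a gene of the named list (number of genes in parentheses, TFs for transcription factors), placed by its log2 CPM in control 3 minus the mean of the other 5 libraries, and the black bar is the list median. The members in red run from 1.53 to 10.13 around a median of 5.03, and the other choroid plexus genes have a median of 2.82, between the 3.93 and 2.95 of the hypothalamic and the thalamic and habenular genes and the 2.45 of the hippocampal, 1.15 of the ependymal and 0.90 of the oligodendrocyte genes. Of the 8 hypothalamic genes, however, 3 were highest in control 3, and their sum was 83.6 CPM there against 513 CPM in control 2.

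Ependymal cells line the ventricles beside the plexus and carry motile cilia. Their 15 genes were highest in control 3 in 13 cases, against 24.1% of all genes at 1 CPM or more there. None was over 2-fold above the next library, against 2.12% of all genes. Their summed level was 136, 187 and 236 CPM in the controls and 71.5, 99.4 and 135 CPM with AP1AR-DT_OE. Dnah11, a dynein heavy chain of motile cilia, was at 4.08, 7.35 and 9.79 CPM and at 0.980, 1.24 and 3.66 CPM. Otx2 and Sostdc1 shared with this sum the low values of AP1AR-DT_OE A and B and the higher value of C. Kl had no such order, and for Clic6 AP1AR-DT_OE A was close to C. With all mice 10 of the 15 were called lower, against 7.15% of all genes, and without control 3 there were 7, against 5.16%. There were 0 when control 2 was left out as well, against 3.15% of all genes, and 1 to 11 when one of the other 4 libraries was. Their part in the values of Otx2 and Sostdc1 was not tested.

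**Figure D4:**
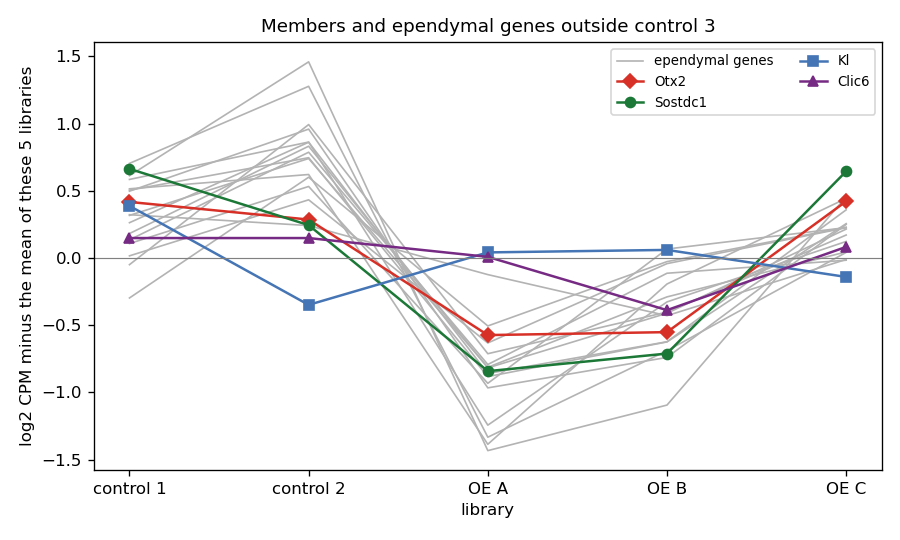
Lines join the log2 CPM of a gene in the 5 libraries other than control 3, each relative to its own mean over them, with the 15 ependymal genes in grey. Otx2 and Sostdc1 lie above 0 in controls 1 and 2 and AP1AR-DT_OE C and below 0 in A and B, as do 13, 15 and 13 and then 15 and 14 of the 15 grey lines.

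Oligodendrocytes also make Enpp2. Their 8 genes summed to 5224, 6665 and 11040 CPM in the controls and to 5261, 5339 and 5341 CPM with AP1AR-DT_OE. All 8 were highest in control 3, none over 2-fold, against 24.1% and 2.12% of all genes at 1 CPM or more there. Enpp2 and this sum both had control 2 second to control 3, and the sum rose less, by under 2-fold over control 2, where Enpp2 rose 14.2-fold. Leptomeningeal fibroblast genes, another tissue at the plexus, were highest in control 3 in 4 of 12 cases, and over 2-fold for Igf2, an insulin-like growth factor also made by plexus stroma, at 232 CPM against at most 52.4 CPM, and Ogn. Of 8 endothelial genes 2 were highest in control 3. Since 24.1% of all genes at 1 CPM or more there were highest in that library, nothing is read from the counts of 4 of 12 and 2 of 8. Over 2-fold above the rest were 2.12% of all genes. The part of these cell types in the values of the members was not tested.

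The 20 genes outside the set whose pattern was most like that of the members were those with the largest gap on the log2 CPM scale between control 3 and the highest of the other 5 libraries, among genes that passed the filter on low counts and had at least 1 CPM in control 3. That filter left out some genes with gaps as wide, Slc4a5, Lct and Lmx1a among them. The 20 genes were Shox2, Tmem72, F5, Gpr151, Wdr86, Gm18334, Dsp, Gm5741, Cldn2, Chrnb3, Pmch, Chrnb4, Steap1, Tcf7l2, Rbm47, Abca4, Ecrg4, Irx2, Col8a1 and Lhx9. Of these, 7 stand on the list of other choroid plexus genes, and 4 on the lists of thalamus and habenula, hippocampus or hypothalamus. The other 9, with Shox2, Ecrg4 and Lhx9 among them, stand on no list, so these counts depend on which genes the lists hold. Shox2, a homeobox gene, was at 62.0 CPM in control 3 and at most 0.341 CPM elsewhere. Tcf7l2, a transcription factor that marks thalamic neurons, was at 134 CPM against 9.76 to 11.2 CPM, and Gpr151, a receptor of habenular neurons, at 34.6 against 0.686 to 1.13 CPM. All 8 thalamic and habenular genes were highest in control 3 and 6 were over 2-fold above the rest. The shares of all genes at 1 CPM or more there were 24.1% and 2.12%. Whether the piece of tissue taken differed between the mice was not tested.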

How the data were processed

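RNA from brain of 3 control and 3 AP1AR-DT_OE mice was sequenced by the authors, who made libraries with the Illumina TruSeq kit, mapped paired reads to GRCm38 with Bowtie2, and quantified genes with StringTie and the GENCODE annotation. The deposited counts are whole numbers per gene, extracted by the authors with StringTie's script from coverage, without normalization. The submitters' processing notes name other tools (TopHat2 2.0.4, SAMtools, HTSeq, Cuffdiff, edgeR 2.6.12 and mm9), and which were used for this table is not settled by the sources used here. The deposited table also holds the authors' DESeq2 output (mean normalized count, log2 fold change, standard error, statistic, P and adjusted P), which was not used. Columns of per-sample values left unused numbered 0.

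Counts were tested here with edgeR 4.0.16 (R 4.3.3) by the quasi-likelihood test, two-sided, after filterByExpr and TMM scaling, on all genes, with Benjamini-Hochberg adjustment. Genes were called as in the study at P under 0.05 and a log2 fold change beyond 0.32. DESeq2 1.42.0 was an alternative. Log2 CPM used a prior count of 0.5. Mice are the replicates, so P-values measure the spread between these mice. The totals of 42061721 to 54668294 counts per library set the precision, and limits for a count of 0 cover counting error only. On simulated counts with all mice (21844 genes) edgeR called 84 of 100 genes changed by 1 on the log2 scale and 100 of 100 changed by 3, and 978 unchanged genes. Without control 3 (22502 genes) it called 82 and 100 of 100, and 996 unchanged genes. The changed genes were drawn from those with a mean above 1 CPM, and no library was set apart. Folr1 and Kcne2 had lower means outside control 3, at 0.830 and 0.308 CPM, so these counts do not cover them.

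The members and all gene lists were chosen with earlier results of these data known. Named genes were every member, those list genes the text needs, from the largest and smallest difference of control 3 from the others in their list, and the 20 tested genes at 1 CPM or more in control 3 with the widest gap to the highest other library. Slc17a7, Rorb, Slc2a12, Slc29a4, Igf2, Ogn, Slc4a2, Car12, Gmnc, Msx1, Avp, Oxt and the overlapping and neighbouring genes fall outside that rule and were chosen after their values were seen. One gene of the transport list is not reported here. Of 52390 gene IDs 52081 were in GENCODE vM21, which gave positions and exon lengths (pandas 2.3.3, Python 3.11.15). Promoter windows came from RefSeq (GRCm38.p6). No 2 libraries agreed within sampling noise (lowest chi-square per gene 44.8).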

Additional observations from a re-analysis of the deposited data

How the results depend on the processing

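The excess of control 3 over the other libraries, a median of 5.03 on the log2 CPM scale, was 4.94 to 5.28 over the 5 alternatives (scaling, prior count, reference libraries, summed CPM). The count of members called with all mice, 7, was 7 under both other scalings and without a filter, 1 with DESeq2, which gave no P for 8 members, and 0 to 9 when single libraries were left out. The count without control 3, 0, was 1 with DESeq2 and 0 to 2 on leaving out a further library. Over all genes, 2675 calls with all mice ranged from 1430 to 3508 on leaving out single libraries, and 2430 calls without control 3 from 1175 to 3478. The lowest counts came without AP1AR-DT_OE B, which left 3 controls against 2 and then 2 against 2. Of the calls, 1642 were shared between the fits with and without control 3.

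On leaving out single libraries from all mice, the log2 fold change ran from −4.86 to 1.62 for Aqp1 and from −6.35 to 0.32 for Kcne2, both positive only without control 3. In the fit without control 3 the direction turned for Folr1 (−0.54 to 0.17, positive without AP1AR-DT_OE A), Kl (−0.40 to 0.36, positive without control 1), Aqp1 (−0.67 to 3.18, negative without AP1AR-DT_OE C) and Kcne2 (−0.90 to 2.15, negative also at −0.44 without control 1), none of them called. The cause was not tested. No paired analysis was possible because the labels of the groups share only 1 mouse number and the AP1AR-DT_OE columns do not carry the mouse numbers.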

Other observations

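Genes of other regions stood apart in single libraries as well. The hypothalamic peptide genes Avp, encoding vasopressin, and Oxt, encoding oxytocin, peaked in control 2, at 184 and 281 CPM, with 15.1 and 18.6 CPM in control 3 and at most 1.66 CPM in the other 4 libraries. The members did not share this peak, with 3.69 CPM of Ttr and no count of Kcnj13 in control 2. Lct, lactase, a gene of the hippocampal list, was at 11.7 CPM in control 3 and at most 0.223 CPM elsewhere. All 8 striatal genes were below the mean of the other 5 libraries in control 3, by 0.46 to 1.47 on the log2 CPM scale, and their sum was highest in AP1AR-DT_OE A at 2388 CPM and lowest in control 2 at 353 CPM.

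Of the 379 genes over 2-fold above every other library in control 3, 325 were tested. They were chosen for being high in a control library, so that lower values in AP1AR-DT_OE with all mice, where 64 were called lower, follow from the choice. Without control 3 there were 14 called lower and 13 higher, near the 5.16% and 5.64% of all genes. Their median log2 fold change was −1.13 with all mice and −0.03 without control 3, against −0.01 and 0.00 over all genes tested.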
